A study of Arabidopsis thaliana with 12 samples.

Results

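Of 35092 transposons listed for Arabidopsis thaliana, 805 (2.29%) had at least 100 RPM (reads normalised to the genome-matching reads of the library) of siRNAs in each of the 4 wild-type small RNA libraries of the siR_21 table. They made up 52.8% of that table's RPM in both libraries of leaves, against 38.0% and 37.7% in flowers of wild type. The members were chosen by these wild-type siR_21 values, so those values are given as a description, without a test. Of the 805, 747 are transposable elements (of 31189 listed) and 58 are transposable element genes (of 3903 listed).

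Small interfering RNAs (siRNAs) of plants are cut from double-stranded RNA by DICER-LIKE (DCL) enzymes and guide ARGONAUTE (AGO) proteins. DCL3 makes the longer siRNAs of RNA-directed DNA methylation, the pathway that keeps transposons silent, from transcripts of RNA polymerase IV that RDR2 has made double-stranded. DCL2 and DCL4 make shorter siRNAs of post-transcriptional silencing. Repeated transposons can produce the same siRNA from many copies, so a read from them often has no single place of origin.

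The study added small RNA standards to small RNA libraries of Arabidopsis. The groups of tissue numbered 3, each with 2 biological replicates, which were independently acquired pools of tissue from plants aged 4 to 6 weeks. The dcl234 flowers were unopened floral buds of plants that carried the mutations dcl4-2t, dcl3-1 and dcl2-1, all homozygous, Col-0 leaves were rosette and cauline leaves of wild type, and Col-0 flowers were unopened wild-type buds collected from the plants that gave the leaves. The same 3 groups have mRNA-Seq libraries. The files hold one table named siR_21 and one named siR_24. Which size class each name stands for was not settled, so both are called by their names, which may be exchanged. In Col-0 flowers the siR_21 table summed to 904450 and 1016060 RPM and the siR_24 table to 253574 and 282056 RPM. In dcl234 flowers the sums were 81864 and 80126 RPM, and 220073 and 197695 RPM. The paper reports shorter small RNAs as the smaller part in Col-0 flowers, and DCL3 as required for the longer siRNAs. A fall in the siR_21 table should thus not be read as a loss of shorter siRNAs. All RPM are relative to the library. Pooled tissue cannot tell fewer siRNA-producing cells from less siRNA per cell.

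Between 4062090 (Col-0 leaves replicate 2) and 13755078 (Col-0 flowers replicate 2) genome-matching reads stood behind a library, so that 1 read was worth between 0.0727 and 0.246 RPM. At least 99.97% of the values were whole numbers of reads within 0.01 reads, so that the values show no division of a read among its matches, and the siR_21 table of Col-0 flowers replicate 2 summed to 1016060 RPM, which counts some reads at several transposons. In the mRNA libraries, Col-0 leaves had all 4 leaf markers higher and all 4 flower markers lower than Col-0 flowers (limma, Benjamini-Hochberg adjusted p at most 0.0234). The flower markers and RCA passed in every fit made, while RBCS1A, CA1 and CAB3 kept their direction but missed the threshold in 6, 5 and 3 other fits, among them quantile normalization (adjusted p = 0.0845, 0.0566 and 0.216) and the fits without Col-0 flowers replicate 1 or replicate 2. DCL3 mRNA stood at 0.40 and 0.37 TPM (each gene's length-corrected share of the library's transcripts) in dcl234 flowers, against 3.85 and 4.3 TPM in Col-0 flowers (log2 difference −1.87 ± 0.35 SE, limma adjusted p = 0.0125). This call was lost with a pseudocount of 0.1 TPM (adjusted p = 0.063) and without any one of the 4 libraries compared, where the difference stayed between −1.94 and −1.81. DCL2 and DCL4 mRNA did not pass the test (adjusted p = 0.255 and 0.514). A TPM over the whole gene does not show whether an intact transcript was made.

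Sequences of the 58 transposable element genes were read from RefSeq's TAIR10.1 assembly, in which all 58 are annotated as pseudogenes. The assembly annotation used here gave no coordinates for the other 747 members. The 6 stretches of 120 bases are shown because they carry the most repeated sequence of genes that the results turn on. The first 4 represent the sequence families described further on, and the last 2 are the member gene with the highest siR_21 level and the one with the highest siR_24 ratio of dcl234 to Col-0 flowers. Each is written 5′ to 3′ on the gene's strand, and capitals mark one occurrence of the stretch of 24 bases (24-mer) with the most exact copies in the genome, up to 100, the most alignments a read could have to be kept.
AT2G04980: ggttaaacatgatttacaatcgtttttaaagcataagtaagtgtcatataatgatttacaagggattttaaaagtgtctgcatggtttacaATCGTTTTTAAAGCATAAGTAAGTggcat
AT4G12426: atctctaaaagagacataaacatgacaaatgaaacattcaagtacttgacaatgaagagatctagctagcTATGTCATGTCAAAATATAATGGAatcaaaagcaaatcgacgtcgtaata
AT4G09380: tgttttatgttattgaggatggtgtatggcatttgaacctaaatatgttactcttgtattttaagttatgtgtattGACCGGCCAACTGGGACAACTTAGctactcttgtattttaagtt
AT2G31520: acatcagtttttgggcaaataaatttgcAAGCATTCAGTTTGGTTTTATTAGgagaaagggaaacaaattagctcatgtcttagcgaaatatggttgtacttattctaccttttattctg
AT4G06477: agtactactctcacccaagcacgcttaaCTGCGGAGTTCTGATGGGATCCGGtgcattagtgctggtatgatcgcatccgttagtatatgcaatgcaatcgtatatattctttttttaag
AT5G27590: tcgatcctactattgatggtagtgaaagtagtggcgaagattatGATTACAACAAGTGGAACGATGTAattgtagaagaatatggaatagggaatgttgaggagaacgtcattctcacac

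These stretches lie at chr2:1755558-1755677 (minus strand), chr4:7362761-7362880 (plus), chr4:5946770-5946889 (minus), chr2:13421996-13422115 (minus), chr4:3061105-3061224 (minus) and chr5:9739807-9739926 (minus), in the order shown. The capital 24-mer of AT2G04980 had 82 exact copies in the genome and stood in all 11 member genes of its family, and it stands once more in the printed stretch, in lower case near the start. That of AT4G12426 had 23 copies and stood in 5 of 6 family members, that of AT4G09380 had 22 copies and stood in 2 of 4, and that of AT2G31520 had 7 copies and stood in all 3. The 24-mer of AT4G06477 had 97 copies but occurred in no other transposable element gene. What the other copies are is not annotated in the assembly used here, and whether reads counted at AT4G06477 came from this gene or from those copies was not tested. The 24-mer of AT5G27590 had 20 copies and stood in 20 transposable element genes, of which AT5G27590 was the only member.

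The member genes were longer and more repetitive than the other 3222 transposable element genes with a mean of at least 1 RPM in the siR_21 table. Their median length was 4385 bases, against 2291 bases in the others, and their median GC content was 37.8%, against 41.7%. The median member gene had 17.9% of its 24-mers at a single place in the genome, against 57.7% in the others. The same wild-type siR_21 values that the rule used, divided by length, had a median of 57.3 RPM per kb in the member genes, against 6.90 RPM per kb in the others (mean of the 4 wild-type libraries). Repetition was not shared by every member gene: AT2G19100 had 99.7% single-copy 24-mers and a mean of 124 RPM. The highest level per length was that of AT5G35805, a gene of 342 bases with 444 RPM per kb and no single-copy 24-mer. These are descriptions, since the rule favours long and repeated transposons by construction.

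The siR_21 level of the median member was 33.2 and 32.5 RPM in dcl234 flowers, 230 and 216 RPM in Col-0 leaves, and 358 and 386 RPM in Col-0 flowers. Replicates lay close together and the 3 groups of medians did not overlap. In the siR_24 table, which the rule did not use, the median member stood at 47.5 and 47.0 RPM in dcl234 flowers, 46.5 and 49.5 RPM in Col-0 leaves, and 76.6 and 83.8 RPM in Col-0 flowers. The medians of dcl234 flowers and Col-0 leaves overlapped there, and both lay below those of Col-0 flowers. All 805 members passed the filter of the siR_24 table, a mean of at least 1 RPM, which 12440 of 35092 transposons passed.

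**Figure D1:**
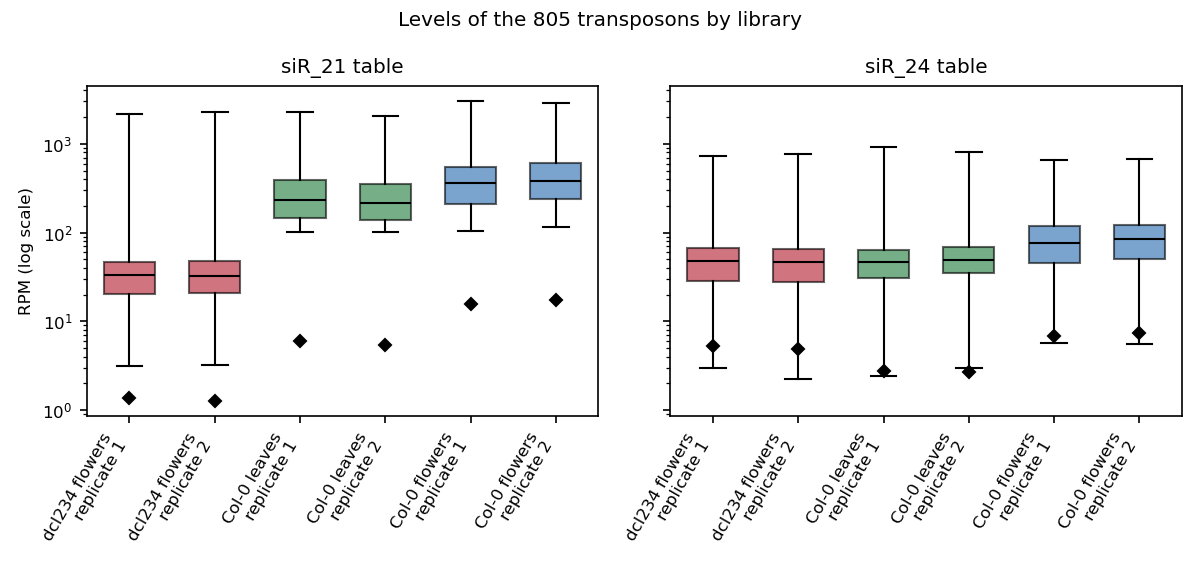
Levels of the 805 transposons in each library, in RPM on a log axis, in the siR_21 table (left) and the siR_24 table (right). Boxes span the quartiles with the median as a line, whiskers reach the lowest and highest member, and diamonds mark the median of all transposons with a mean of at least 1 RPM in that table. The median member was at 33.2 and 32.5 RPM in dcl234 flowers and at 358 and 386 RPM in Col-0 flowers in the siR_21 table.

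The share of the siR_21 table held by the members was 40.4% and 41.7% in dcl234 flowers, 52.8% in both libraries of Col-0 leaves, and 38.0% and 37.7% in Col-0 flowers. In the siR_24 table their share was 26.6% and 27.7% in dcl234 flowers, 43.3% and 43.8% in Col-0 leaves, and 31.4% and 30.8% in Col-0 flowers. No replicates overlapped between the 3 groups in the siR_24 table. The leaf share exceeded that of Col-0 flowers by 12.5 percentage points, and the dcl234 share was 3.95 percentage points below that of Col-0 flowers. With 2 libraries against 2, the exact two-sided permutation p was 0.33 for both, the smallest this design allows, so this test could not pass at any difference. The siR_24 shares are also not fully independent of the rule, as described further on.

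The members' RPM were spread over many of them, but some reads are counted at several transposons. Members with nearly the same values, described further on, may hold the same reads, which was not tested. In the siR_21 table, 211 to 215 of the 805 transposons held 50% of the members' RPM in Col-0 flowers, and the top 10 held 4.58% and 4.74%. In dcl234 flowers the top 10 held 12.9% and 13.8%. Much of that came from 1 transposon: AT3TE69475 had 2163 and 2288 RPM in dcl234 flowers, 2263 and 2063 RPM in Col-0 leaves, and 3040 and 2904 RPM in Col-0 flowers. It had the highest siR_21 RPM of all members in each of the 6 libraries. In the siR_24 table AT3TE69475 had 721 and 778 RPM in dcl234 flowers, 566 and 616 RPM in Col-0 leaves, and 650 and 560 RPM in Col-0 flowers. There, both dcl234 values lay above both values of Col-0 flowers.

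The next transposons by mean siR_21 RPM over the 4 wild-type libraries, with those of like values left out, were AT5TE40480, AT4TE14145 and AT4G06477. These RPM are per transposon and not per length. AT5TE40480 had 224 and 229 RPM in dcl234 flowers, 1597 and 2026 RPM in Col-0 leaves, and 1242 and 1584 RPM in Col-0 flowers. AT4TE14145 had 206 and 204 RPM in dcl234 flowers, 1298 and 1843 RPM in Col-0 leaves, and 972 and 1178 RPM in Col-0 flowers. Both had leaves and flowers of wild type far above dcl234 flowers. AT3TE57645 followed with 96.3 and 106 RPM in dcl234 flowers, 818 and 756 RPM in Col-0 leaves, and 1101 and 1200 RPM in Col-0 flowers. AT4TE25805 was close to it, with 84.7 and 94.1 RPM in dcl234 flowers, 842 and 756 RPM in Col-0 leaves, and 1085 and 1182 RPM in Col-0 flowers. Both had their lowest values in dcl234 flowers and their highest in Col-0 flowers, without overlap.

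Just inside the threshold were AT2TE22520, AT1G30030 and AT5TE94375, whose lowest wild-type siR_21 values were 100.2, 100.4 and 100.7 RPM. Just outside were AT4G10580 and AT1TE53090, each at 99.9 RPM, and AT1TE72980 at 99.8 RPM. The lowest value came from a leaf library in all 6 of them.

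The members were found on all 5 chromosomes, as the locus names give them. Chromosome 1 held 166 (2.12% of the transposons listed there), chromosome 2 held 150 (2.21%), chromosome 3 held 177 (2.41%), chromosome 4 held 115 (2.03%) and chromosome 5 held 197 (2.63%). The median leaf to flower ratio of siR_21 RPM lay between 0.68 and 0.70 on every chromosome, and the median dcl234 to Col-0 flower ratio between 0.081 and 0.089. Of the 58 member genes, 5, 15, 15, 14 and 9 lay on chromosomes 1 to 5 in that order.

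Many members had nearly the same values as others. When members were put together if all 12 of their small RNA values, with 5 RPM added, lay within 20% of those of the highest one, the 805 formed 366 groups. Of these, 179 held a single transposon and 34 held at least 5. The 187 groups of at least 2 held 626 members, and 152 of these groups spanned more than 1 chromosome. The largest, led by AT4TE07740, held 14 transposons on 5 chromosomes. Its siR_21 levels were 67.6 to 76.3 RPM in dcl234 flowers replicate 1, 693 to 779 RPM in Col-0 leaves replicate 1 and 811 to 925 RPM in Col-0 flowers replicate 1. Like values do not show that the same reads were counted. That was not tested, since the reads were not used here.

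For the member genes, likeness of sequence could be set beside likeness of values. Of the 58, 49 shared at least one 24-mer with another. Linking genes that shared at least 50% of their 24-mers both ways gave 7 families with 30 genes, 4 of them of at least 3 genes. The largest family held 11 genes (AT2G02210, AT2G04980, AT2G06430, AT2G14130, AT2G15140, AT2G15190, AT3G30440, AT3G44500, AT3G47260, AT4G04010 and AT5G34900) on 4 chromosomes. Their siR_21 leaf to flower ratios lay between 0.65 and 0.70, their dcl234 to Col-0 flower ratios between 0.089 and 0.117, and their siR_24 to siR_21 ratios in Col-0 flowers between 0.33 and 0.39. Each gene of this family kept a higher siR_24 to siR_21 ratio than any gene of the other 3 families. The 6 genes with AT4G12426 had leaf to flower ratios of 0.55 to 0.62 and siR_24 to siR_21 ratios of 0.21 to 0.23. The 4 genes with AT4G09380 had leaf to flower ratios of 0.73 to 0.79 and the 3 with AT2G31520 had 0.87 to 0.94. The ranges of these 4 families did not overlap for the leaf to flower ratio of siR_21. The families of 2 genes, at 0.59 to 0.61 (with AT3G50490), 0.88 to 0.89 (with AT5G25205) and 0.75 to 0.76 (with AT4G09455), fell inside them. The ratio thus did not tell all 7 families apart. Genes of a family share sequence, so their values may not be independent, and the threshold of 50% was chosen after the values had been seen, as were the tolerance of 20% and the loci printed.

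**Figure D2:**
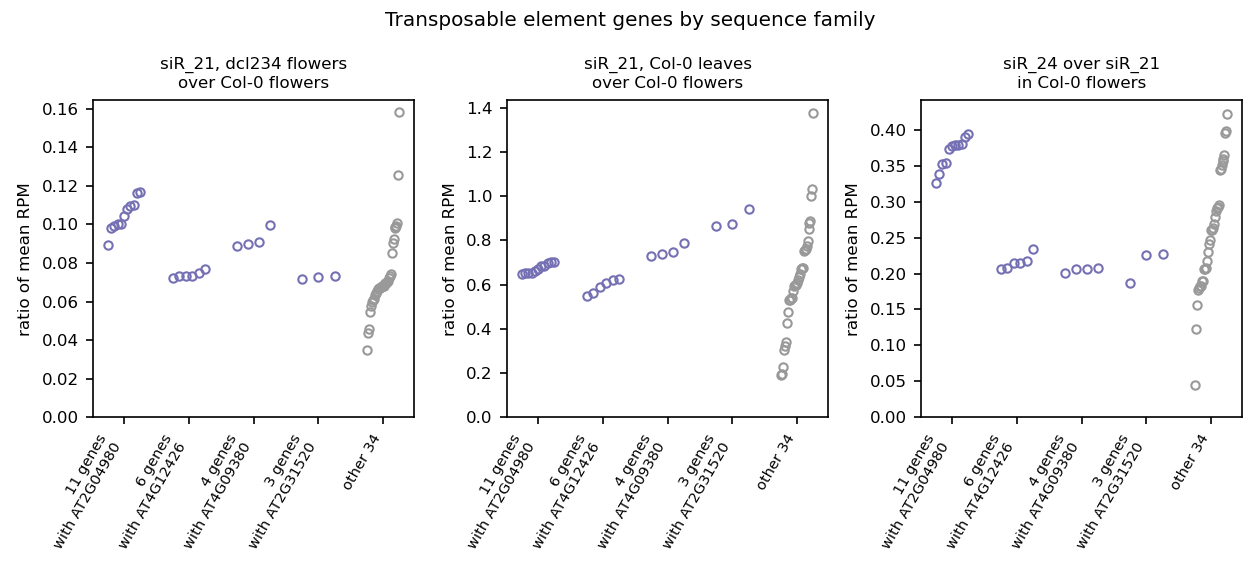
Ratios of mean RPM of the 58 transposable element genes, 1 circle per gene, for the 4 sequence families of at least 3 genes and the other 34 genes. Panels show dcl234 flowers over Col-0 flowers in the siR_21 table, Col-0 leaves over Col-0 flowers in the siR_21 table, and siR_24 over siR_21 in Col-0 flowers. The 4 families occupy separate ranges of the leaf to flower ratio, between 0.55 and 0.94 in all, but smaller families among the other 34 genes fall inside these ranges.

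In dcl234 flowers the siR_21 level of the median member was 0.084 times that of Col-0 flowers (quartiles 0.072 and 0.104), which is 11.9-fold lower. The median over all 15813 transposons with a mean of at least 1 RPM was 0.081. Both dcl234 libraries lay below both libraries of Col-0 flowers in 804 of 805 members, against 99.7% of the 15813 (the rule used the Col-0 side). The single exception was AT5TE11315, above both, as were 0.0506% of the 15813. Among the members, the 5th and 95th percentiles of the ratio were 0.046 and 0.129.

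AT5TE11315 had 648 and 878 RPM in dcl234 flowers, 1291 and 1121 RPM in Col-0 leaves, and 240 and 299 RPM in Col-0 flowers in the siR_21 table. It was 2.83 times as high in dcl234 flowers as in Col-0 flowers. The second highest ratio, 0.749, was that of AT3TE69475, described above, and AT5TE39350 and AT5TE45800 followed with 0.219 and 0.209. At the low end, with 1 transposon per group of like values, stood AT1TE81285, with 3.64 and 4.42 RPM in dcl234 flowers, 149 and 163 RPM in Col-0 leaves, and 139 and 150 RPM in Col-0 flowers, a ratio of 0.028. AT1TE77880 had 3.64 and 3.96 RPM in dcl234 flowers, 128 and 130 RPM in Col-0 leaves, and 110 and 127 RPM in Col-0 flowers. The gene AT4G09455 (ratio 0.035) and AT2TE45800 (ratio 0.035) were next among the transposons that lead their groups. At these 4 loci dcl234 flowers lay 28.3- to 35.9-fold below Col-0 flowers.

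The rule did not use the siR_24 values, but they come from the same Col-0 libraries, and the members' mean Col-0 levels in both tables had a Spearman's rho of 0.68 (n = 805). Choosing high Col-0 siR_21 levels can therefore also favour high Col-0 siR_24 levels, and the comparisons with Col-0 flowers are not fully independent of the rule. The siR_24 table was tested with limma on log2(RPM + 1) over its 12440 transposons, which understates the changes of low ones. In dcl234 flowers, 471 of 805 members (58.5%) fell and 1 rose at an adjusted p under 0.05, against 26.2% of all 12440 that fell and 3.19% that rose. The median log2 difference was −0.69 over the members and −0.38 over the whole table, with a median SE of 0.21 over the members. After TMM scaling of the recovered reads in edgeR, which moved the median of the whole table to 0.012, 275 members were lower and 49 higher, against 14.2% and 11.2% of the 12440. With edgeR on the reads without that scaling, 617 were lower and 4 higher, against 33.1% and 3.99%, and with RPM scaled to the miRNA total (limma) 799 were lower and 0 higher, against 87.1% and 0.442%. The miRNA total itself differed, at 92194 and 98955 RPM in dcl234 flowers against 46689 and 48918 RPM in Col-0 flowers. Dividing by it lowers every dcl234 value relative to Col-0 flowers. The paper reports more total miRNA in dcl234 flowers by both its relative and its absolute measure. With DESeq2 the counts were 204 lower and 38 higher, against 9.08% and 6.29%. The members' median stayed below the table's in each of these fits, at −0.24 with TMM and −0.20 with DESeq2. The count of 471 was 198 and 178 without dcl234 flowers replicate 1 and replicate 2, 165 and 113 without Col-0 flowers replicate 1 and replicate 2, and 263 with a pseudocount of 0.1 RPM. Without any model, both dcl234 libraries lay below both libraries of Col-0 flowers in 743 members and above both in 26, against 61% and 10.6% of the 12440. In linear terms the median member's siR_24 ratio of dcl234 to Col-0 flowers was 0.61, against 0.73 over the table. In the siR_21 table the corresponding ratio was 0.084.

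The member that rose in dcl234 flowers in the siR_24 table was AT5TE11315, at 308 and 379 RPM in dcl234 flowers, 915 and 818 RPM in Col-0 leaves, and 125 and 161 RPM in Col-0 flowers (log2 difference 1.26 ± 0.23 SE, adjusted p = 0.00358). It did not pass when Col-0 flowers replicate 1 was left out (1.08) or when RPM were scaled to the miRNA total (0.27). The gene AT5G27590 had 156 and 145 RPM in dcl234 flowers, 25.7 and 29.8 RPM in Col-0 leaves, and 99.1 and 99.2 RPM in Col-0 flowers. Its difference of 0.60 ± 0.21 missed the threshold (adjusted p = 0.0539), as did those of AT2TE29730 (0.49 ± 0.21, adjusted p = 0.106) and AT5TE45800 (0.46 ± 0.27, adjusted p = 0.221). AT5G27590 passed in 6 other fits (adjusted p = 0.0271 with at least 1 RPM in each library, 0.0402 with every transposon above 0, 0.0254 with only the libraries of the contrast, 0.00502 with edgeR, 2.55e-06 with edgeR and TMM, and 1.62e-11 with DESeq2). AT2TE29730 passed with edgeR, edgeR and TMM, and DESeq2, and AT5TE45800 with edgeR and TMM, and DESeq2. With RPM scaled to the miRNA total the differences of AT5G27590, AT2TE29730 and AT5TE45800 turned to −0.39, −0.50 and −0.52, none past the threshold. The limit of that scaling given above applies here too. In the siR_21 table AT5G27590 stood instead at 32.6 and 28.2 RPM in dcl234 flowers, against 328 and 343 RPM in Col-0 flowers.

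The deepest falls of siR_24 levels in dcl234 flowers, with 1 transposon per group of like values, were those of AT2TE20890, AT5TE88270, AT1TE81285 and AT1TE77880. AT2TE20890 had 10.7 and 12.3 RPM in dcl234 flowers, 91.0 and 56.9 RPM in Col-0 leaves, and 66.2 and 73.0 RPM in Col-0 flowers (log2 difference −2.49 ± 0.26 SE, adjusted p = 0.000261). AT1TE81285 had 3.34 and 3.61 RPM in dcl234 flowers, 27.7 and 23.6 RPM in Col-0 leaves, and 21.5 and 24.4 RPM in Col-0 flowers (−2.42 ± 0.21, adjusted p = 0.000136). The other pair fell by 2.46 (AT5TE88270) and 2.28 (AT1TE77880) on the log2 scale. AT1TE81285 and AT1TE77880 were thus among the lowest in dcl234 flowers in both tables, while their levels in the wild-type organs overlapped or lay close together.

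**Figure D3:**
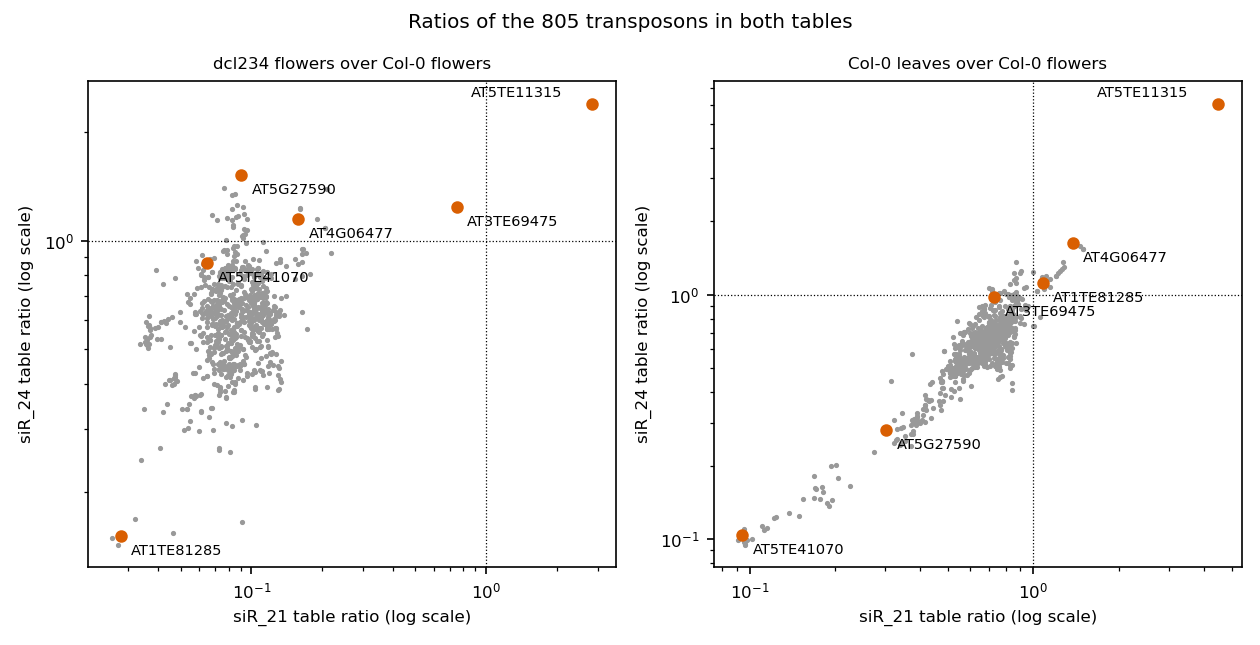
Ratios of mean RPM for the 805 transposons in the siR_21 table (x axis) and the siR_24 table (y axis), both on log scales, for dcl234 flowers over Col-0 flowers (left) and Col-0 leaves over Col-0 flowers (right). Each grey point is a transposon, 6 named ones are in orange, and dotted lines mark a ratio of 1. On the left the points spread around 0.084 in siR_21 and 0.61 in siR_24, and on the right they follow a line on which AT5TE11315 stands highest at 4.47 and 6.06.

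Between organs, the siR_21 level of the median member in Col-0 leaves was 0.69 times that of Col-0 flowers (quartiles 0.59 and 0.77), against 0.43 over the 15813 transposons. Both leaf libraries lay below both libraries of Col-0 flowers in 765 members, beside 83% of all 15813, and above both in 13, beside 3.47%. The rule requires a level in leaves and so fixes part of this, and no test was made. The RPM of each library are shares of its own reads, and dividing by the table's median ratio instead turned the members' median to 1.62. That division removes any change shared by the whole table, so 1.62 does not show more siRNA in leaves. The paper's small RNA standards, added per amount of total RNA, took a larger share of reads in leaves than in Col-0 flowers. Scaling to them would lower the leaf to flower ratio, which was not done here. The ratio of the median member was 0.43 when RPM were scaled to the summed miRNA families. These sums were themselves higher in Col-0 leaves (78955 and 74544 RPM) than in Col-0 flowers (46689 and 48918 RPM).

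Among the 24 members above 1 were AT5TE11315 (4.47), AT5TE45800 (1.5), AT4TE14145 (1.46) and AT4G06477 (1.37), the highest with 1 transposon per group of like values. AT4G06477 had 183 and 169 RPM in dcl234 flowers, 1310 and 1747 RPM in Col-0 leaves, and 1017 and 1207 RPM in Col-0 flowers. AT5TE45800 had 54.1 and 68.4 RPM in dcl234 flowers, 383 and 496 RPM in Col-0 leaves, and 253 and 333 RPM in Col-0 flowers. Leaves lay above flowers without overlap in both. The 4 lowest ratios by group, each 0.094 to 0.096, were those of AT5TE41070, AT3TE50760, AT3TE55395 and AT5TE43260. AT5TE41070 had 119 and 99.8 RPM in dcl234 flowers, 173 and 144 RPM in Col-0 leaves, and 1537 and 1830 RPM in Col-0 flowers. Leaf levels of these 4 were thus near the threshold of the rule and flower levels among the highest.

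Against Col-0 flowers, 534 members (66.3%) had lower siR_24 levels in leaves and 3 had higher ones (limma), whereas edgeR with TMM called 74 lower and 537 higher and DESeq2 66 lower and 547 higher. TMM and DESeq2 scale each library by the bulk of the table, so these calls are relative to the table's own change. Over all 12440 transposons limma called 66.9% lower and 0.908% higher, edgeR with TMM 30.6% lower and 23% higher, and DESeq2 25% lower and 20.3% higher. The members' share of lower calls by limma was thus near that of the table. With edgeR on reads without TMM, 627 were lower and 6 higher, against 66.7% and 0.965%, and with RPM scaled to the miRNA total 780 were lower and 1 higher, against 89.3% and 0.265%. Both leaf libraries lay below both libraries of Col-0 flowers in 702 members and above both in 17, against 79.2% and 3.74%. The median log2 difference was −0.65 over the members and −0.95 over the table in limma, and 0.52 and −0.09 in edgeR with TMM, so that the members lay above the table's median by either scaling. This order turned when every transposon above 0 entered the fit, where the table's median was −0.37. Leaving out replicate 1 or replicate 2 of Col-0 flowers brought the count of 534 to 328 or 262.

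The 3 members higher in leaves by limma were AT5TE11315, AT4G06477 and AT4TE14145. AT5TE11315 was higher by 2.60 ± 0.23 on the log2 scale (adjusted p = 8.12e-06). AT4G06477 had 239 and 244 siR_24 RPM in dcl234 flowers, 302 and 384 RPM in Col-0 leaves, and 200 and 222 RPM in Col-0 flowers (log2 difference 0.69 ± 0.22 SE, adjusted p = 0.0173). AT4TE14145 differed by 0.65 ± 0.23 (adjusted p = 0.0285). Both AT4G06477 and AT4TE14145 missed the threshold when Col-0 leaves replicate 2, Col-0 flowers replicate 1 or Col-0 flowers replicate 2 was left out, and with RPM scaled to the miRNA total, where AT4TE14145 was at −0.029 and AT4G06477 at 0.011. AT4TE14145 also missed it with a pseudocount of 0.1 RPM (adjusted p = 0.0654). The 4 transposons named for the lowest siR_21 ratio were also lower in leaves in the siR_24 table. AT3TE55395 had 391 and 318 RPM in dcl234 flowers, 41.5 and 42.8 RPM in Col-0 leaves, and 409 and 477 RPM in Col-0 flowers (−3.36 ± 0.22, adjusted p = 3.4e-06). The other 3 fell by between 3.25 (AT5TE41070) and 3.38 (AT5TE43260), and the direction was the same in edgeR with TMM and in DESeq2.

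Across the 805 members the leaf to flower ratios of the 2 tables had a Spearman's rho of 0.75, and the dcl234 to Col-0 flower ratios had a rho of 0.23. With 1 transposon per group of like values (n = 366) rho was 0.80 and 0.29. The same libraries stand behind both tables and members may share reads, so these are descriptions without a p.

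**Figure D4:**
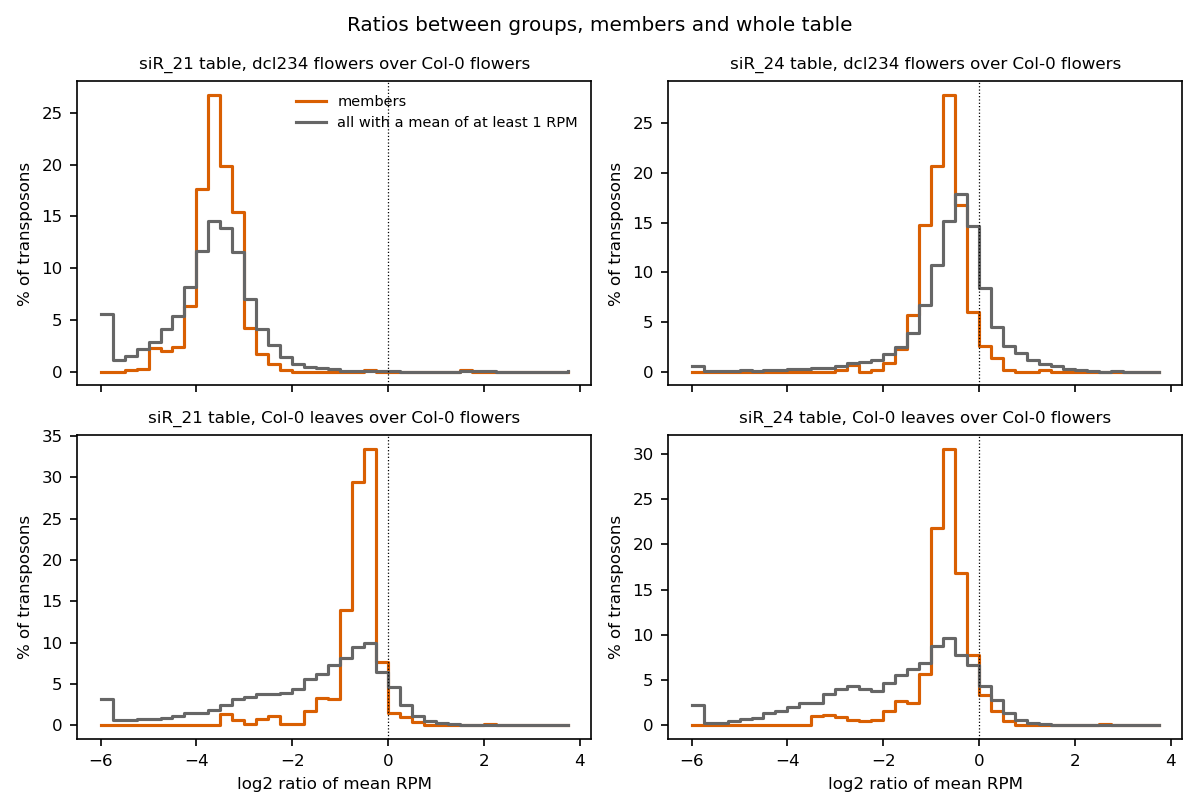
Distribution of log2 ratios of mean RPM, in % of transposons per bin of 0.25, for the 805 members (orange) and all transposons with a mean of at least 1 RPM (grey, 15813 in the siR_21 table and 12440 in the siR_24 table). Upper panels show dcl234 flowers over Col-0 flowers and lower panels Col-0 leaves over Col-0 flowers, with RPM as deposited, the dotted line marks equal levels, and ratios under −6, 0 included, are in the first bin. The members form a narrower peak than the table in all 4 panels.

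The siR_24 level was below the siR_21 level in both wild-type organs for all 805 members, as it was for 96.1% of the siR_21 table's transposons in leaves and 99.5% in Col-0 flowers. The median siR_24 to siR_21 ratio was 0.23 for leaves and 0.24 for Col-0 flowers, against 0.26 and 0.27 over the transposons of the siR_21 table. In dcl234 flowers the members' median ratio was 1.56, and 672 of 805 were above 1, beside a median of 2.24 over the table, where 13948 of 15494 were above 1. By group, the ratio in Col-0 flowers was highest at AT5TE11315 (0.53), AT5TE52230 (0.48), AT4TE17760 (0.45) and AT2TE26865 (0.45), and over all members it reached 0.53. AT5TE52230 had 22.5 and 21.2 RPM of siR_21 in dcl234 flowers, 132 and 114 RPM in Col-0 leaves, and 216 and 217 RPM in Col-0 flowers. Its siR_24 levels were 55.7 and 50.6 RPM in dcl234 flowers, 58.3 and 43.8 RPM in Col-0 leaves, and 99.1 and 110 RPM in Col-0 flowers.

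A small set of members had a low siR_24 level for their siR_21 level. The 4 lowest ratios in Col-0 flowers were those of AT2TE18080 (0.013), AT5TE73030 (0.014), AT5TE56155 (0.016) and AT2TE20540 (0.021). In Col-0 flowers 29 of 805 members were under 0.05, against 78 of the 15813 transposons. In Col-0 leaves 35 of 805 members were under 0.05, against 942 of 15655. The members' share under 0.05 was thus above the table's in Col-0 flowers but below it in leaves. AT2TE18080 had 34.0 and 36.0 RPM of siR_21 in dcl234 flowers, 447 and 324 RPM in Col-0 leaves, and 457 and 459 RPM in Col-0 flowers. Its siR_24 levels were 3.35 and 2.21 RPM in dcl234 flowers, 2.39 and 2.95 RPM in Col-0 leaves, and 5.74 and 6.54 RPM in Col-0 flowers. The siR_21 levels of this transposon were thus above those of the median member. Its siR_24 levels were the lowest or nearly the lowest of all members. In wild type they were close to the median of all transposons with a mean of at least 1 RPM in the siR_24 table. That median was 6.80 and 7.42 RPM in Col-0 flowers, 2.73 and 2.71 RPM in Col-0 leaves, and 5.21 and 4.89 RPM in dcl234 flowers. The other 3 had siR_21 levels within 10% of those of AT2TE18080 in each library, and their siR_21 dcl234 to Col-0 flower ratios lay between 0.073 and 0.077.

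**Figure D5:**
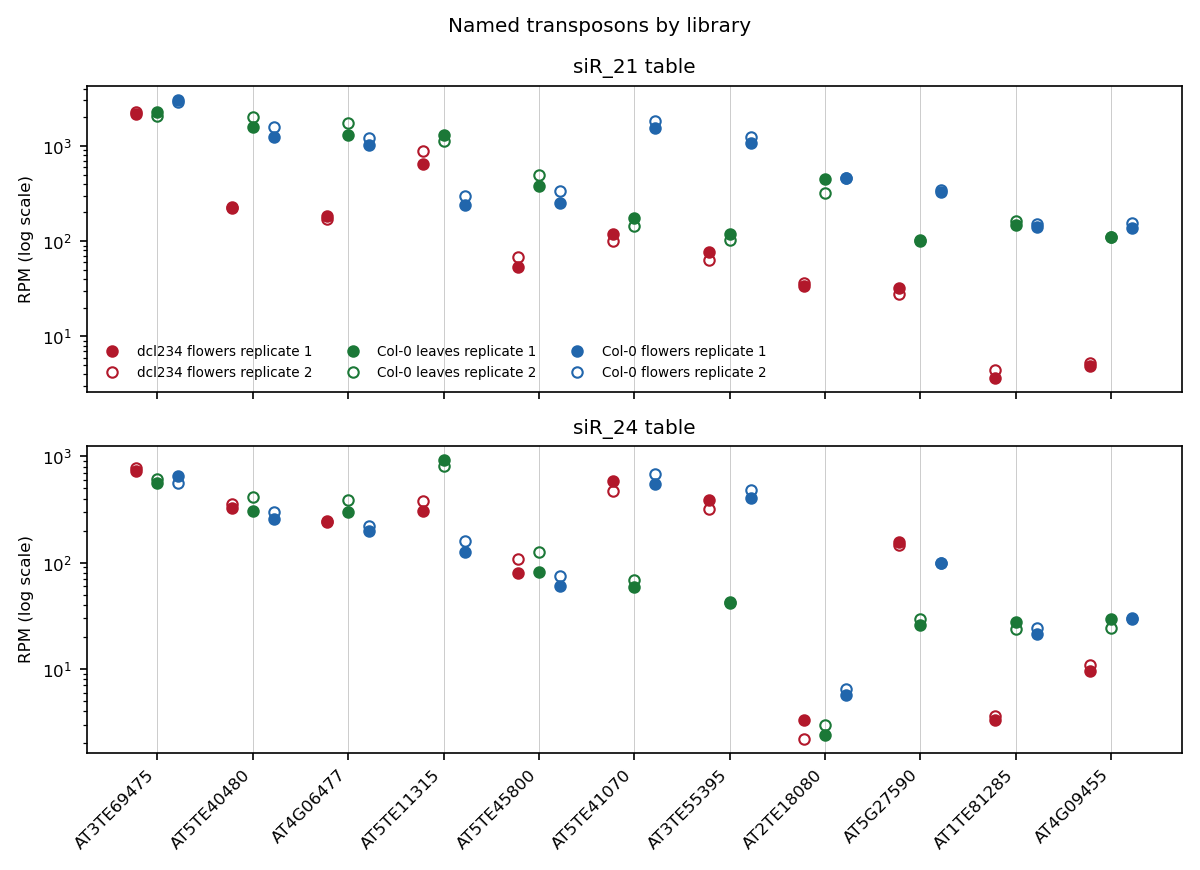
RPM of 11 named transposons in the siR_21 table (upper panel) and the siR_24 table (lower panel), on log axes, with filled circles for replicate 1 and open circles for replicate 2. In each column dcl234 flowers are left, Col-0 leaves in the middle and Col-0 flowers right. AT5TE11315 is lowest in Col-0 flowers in both panels, AT5TE41070 and AT3TE55395 are lowest in leaves in the siR_24 table, and AT2TE18080 has 457 and 459 RPM in Col-0 flowers in the upper panel and 5.74 and 6.54 RPM in the lower.

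None of the 58 member genes reached a mean mRNA level of 1 TPM, so none entered the mRNA test, whereas 94 of all 3903 transposable element genes (2.41%) did. Of the 58, 25 (43.1%) were listed at 0 in all 6 libraries, against 2677 of the 3903 (68.6%). In at least 1 library of dcl234 flowers 24 of the 58 were above 0, against 875 of the 3903. In leaves 5 were above 0, against 437 of the 3903, and in Col-0 flowers 17 were, against 610. The member genes were longer, with a median of 4385 bases against 2053 in the 3903. Whether length affects these counts was not tested. The highest value belonged to AT4G09455, with 0.63 and 0.55 TPM in dcl234 flowers and 0 in the 4 wild-type libraries. This gene was also among the 4 with the lowest siR_21 dcl234 to Col-0 flower ratio, with 4.92 and 5.24 RPM in dcl234 flowers, 109 and 110 RPM in Col-0 leaves, and 136 and 155 RPM in Col-0 flowers. With AT1G62460, which was among the 25 genes at 0 in all 6 libraries, it formed a family that shared 91.7% of its 24-mers. The siR_21 dcl234 to Col-0 flower ratios in this family were 0.035 and 0.044. AT2G12440 had 0.27 and 0.22 TPM in dcl234 flowers, 0.09 and 0.10 TPM in Col-0 leaves, and 0.40 and 0.23 TPM in Col-0 flowers. With the filter lowered to 0.1 TPM, AT4G09455, AT2G12440 and AT3G60565 were tested, and 0 of 3 were called by limma in either comparison. Of all 25223 genes, 0.115% were lower and 0.337% higher in dcl234 flowers, and 19.1% lower and 9.28% higher in leaves. At an unadjusted p under 0.05, 1 (AT4G09455, log2 difference 0.67 ± 0.19, adjusted p = 0.204) passed in dcl234 flowers and 0 in leaves.

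The genes of RNA-directed DNA methylation, which act on such transposons, were followed by a list of 14, of which 10 were tested. In leaves 6 of the 10 were lower and 0 higher, beside 25% and 12.1% of all 19698 genes tested. These were AGO9 (log2 difference −5.03 ± 0.32), an ARGONAUTE with 0.15 and 0 TPM in leaves and 28.7 and 40.4 TPM in Col-0 flowers, CLSY3 (−2.61 ± 0.34), a putative remodeller that recruits RNA polymerase IV, AGO4 (−1.94 ± 0.35), the main effector of the pathway, DCL3 (−1.69 ± 0.35), NRPE1 (−1.39 ± 0.33), the largest subunit of RNA polymerase V, and HEN1 (−1.16 ± 0.30), which methylates small RNAs. RDR2, DRM2, CLSY1 and SHH1 did not pass (adjusted p from 0.0658 to 0.233). Of 7 genes of post-transcriptional silencing, DCL4 was lower in leaves (−0.96 ± 0.32, adjusted p = 0.0273) and the others did not pass. The DCL4 call was lost with only the libraries of the contrast (adjusted p = 0.0731), with quantile normalization (−0.36) and without leaves replicate 1 (−0.92), leaves replicate 2 (−0.997) or Col-0 flowers replicate 2 (−0.76). AGO1 (−1.01, adjusted p = 0.0511) passed with the replicate block, with quantile normalization and without replicate 1 of leaves or of Col-0 flowers, and HEN1 did not pass without leaves replicate 2 (−1.04). In dcl234 flowers DCL3 was the only gene of both lists called, beside 0.503% of all genes called lower and 1.41% called higher.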

How the data were processed

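The members and gene lists were chosen with earlier results of these data known. The authors aligned adapter-trimmed reads of the small RNA libraries to TAIR10 and the spike-in sequences with Bowtie (perfect matches, up to 100 alignments per read) and deposited RPM per transposon. Their methods describe dividing reads per locus by their number of genome matches, which the deposited transposon values do not show, since they are whole reads. The authors quantified mRNA-Seq with RSEM on Araport11 models and deposited TPM. Genome-matching reads per library (4062090 to 13755078) were recovered from the RPM worth of 1 read. Spike-in scaling was not used here.

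limma 3.58.1 was run on log2(RPM + 1), and on log2(TPM + 1) with its trend option, for features with a mean of at least 1, over all 6 libraries, adjusted by Benjamini-Hochberg over all features and called under 0.05. edgeR 4.0.16 and DESeq2 1.42.0 (R 4.3.3) were run on recovered reads as alternatives. On simulated data, limma recovered 200 of 200 changed transposons among 12440 in both siR_24 comparisons, with 4 false calls for leaves and 0 for dcl234 flowers. The planted changes were 4-fold, in transposons well above the filter, with a small fixed spread and no shift of the whole table. The members' median log2 differences, −0.65 in leaves and −0.69 in dcl234 flowers, were smaller than that. The simulation therefore does not show how reliable the calls reported here are. How recovery depends on the size of a difference or on the spread of replicates was not tested.

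One transposon per group of like values was named: the 6 highest in siR_21, the 4 highest and 4 lowest siR_21 leaf to flower ratios, siR_24 to siR_21 ratios in Col-0 flowers, and dcl234 to Col-0 flower ratios in each table, and the 3 on each side of the threshold. AT2G19100, AT5G35805, the genes with mRNA values and the 4 neighbouring and 3 like transposons of the closing section were named after their values were seen. Sequences and 24-mer copies (both strands) come from RefSeq TAIR10.1, in which all 3903 transposable element genes were matched by locus name.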

Additional observations from a re-analysis of the deposited data

How the results depend on the processing

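The number of members was 1637 at 50 RPM, 432 at 200 RPM, 366 with 1 per group of like values (204 with a tolerance of 30%, chosen after seeing the data) and 805 to 917 when one library was left out. At 50 RPM the siR_21 shares were 55.6%, 67.5% and 53.2% in dcl234 flowers, Col-0 leaves and Col-0 flowers, and the siR_24 shares 43.1%, 59.2% and 47.7%. At 200 RPM they were 29.98%, 40.3% and 26.5%, and 16.3%, 30.5% and 19.2%. With 1 member per group they were 19.0%, 22% and 15.4%, and 11.5%, 18.7% and 12.5%. Without one replicate they ranged from 40.4% to 41.7%, 52.8% to 52.8% and 37.7% to 38.0%, and from 26.6% to 27.7%, 43.3% to 43.8% and 30.8% to 31.4%.

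The median siR_21 ratio of leaves to flowers was 0.431 scaled to the miRNA total, 1.62 scaled by the table's median and 0.655 to 0.725 without one replicate. That of dcl234 flowers was 0.0421, 1.04 and 0.0803 to 0.0888.

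In the siR_24 table, members lower in leaves numbered 74 (edgeR with TMM), 66 (DESeq2) and 262 to 535 without one replicate, and members higher 5 with the replicate block, 1 scaled to the miRNA total, 6 with edgeR on recovered reads, 537 with TMM, 547 with DESeq2 and 1 to 7 without one replicate. Median log2 differences of members turned to 0.52 with TMM and 0.60 with DESeq2, and AT4TE14145 to −0.029 scaled to the miRNA total. In dcl234 flowers, members lower numbered 263 with a pseudocount of 0.1, 799 scaled to the miRNA total, 275 with TMM, 204 with DESeq2 and 113 to 198 without one replicate. Members higher numbered 2 with at least 1 RPM in each library, 2 with every transposon above 0, 2 with only the libraries of the contrast, 0 scaled to the miRNA total, 4 with edgeR on recovered reads, 49 with TMM, 38 with DESeq2 and 0 to 1 without one replicate. The table's median was 0.012 with TMM and 0.058 with DESeq2. The cause of these shifts was not tested.

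Whether equal replicate numbers mark the same plants is not known. Deviations of same-numbered siR_24 libraries correlated at 0.02 (leaves and flowers) and −0.08 (dcl234 flowers and Col-0 flowers). With 2 replicates per group, such values cannot show whether the libraries were paired. With the replicate block, 477 and 412 members were lower. For mRNA, no member passed the filter on low values except 3 at a mean of 0.1 TPM, so the count of 0 members called says nothing of stability. Of the other values, for named transposons 181 kept their side of the threshold, 16 passed it newly and 10 lost it, and for listed genes 413, 12 and 25 did so.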

Other observations

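AT5TE40475, AT5TE40480, AT5TE40490 and AT5TE40495, whose names lie close together, were all above 1 in the siR_21 leaf to flower ratio (1.23 to 1.28) and in the siR_24 ratio of dcl234 to Col-0 flowers (1.08 to 1.23). AT1TE81285, AT2TE68900 and AT5TE54595, which had like values, lie on 3 chromosomes by their names and had dcl234 to Col-0 flower ratios of 0.026 to 0.028 in the siR_21 table and 0.14 to 0.15 in the siR_24 table.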
